A study of Mus musculus with 79 samples.

Results

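The data described here are 8 lung RNA libraries, of 79 libraries in the whole series, from mice that had breathed 6% oxygen for 4 h either in the dark phase (ZT16-20) or in the light phase (ZT4-8). ZT, zeitgeber time, counts hours from lights on. The 8 libraries were taken by their labels, 4 per time, and no measured value was used to choose them. The question was which genes differed between the dark and the light phase while oxygen was low, and how these differences stood against those of 8 lung libraries from mice in air, labelled 21% oxygen, at the same times. Every mouse was a C57BL/6 wild type aged 3 months, housed under 12 h of light and 12 h of darkness for 2 weeks. A sealed cage was flushed for 4 h with 6% oxygen in nitrogen, or with 21% oxygen in nitrogen for the controls. The 4 lung groups, each of 4 mice, were ZT16-20 in 6% oxygen, ZT4-8 in 6% oxygen, ZT16-20 in air and ZT4-8 in air. Liver and kidney came from the same mice.

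The mammalian circadian clock is a feedback loop of transcription factors. BMAL1 (gene Arntl), paired with CLOCK or its relative NPAS2, switches on genes through E-box sequences, among them those of the PER and CRY proteins, which then shut the pair off. In a second loop the REV-ERB receptors (Nr1d1, Nr1d2) repress Arntl and the ROR receptors activate it, at the same sequence element. The PAR bZIP activators DBP, TEF and HLF and the competing repressor NFIL3 carry the rhythm to output genes through D-box elements. In lung this clock runs in the airway epithelium and other cells. Low oxygen acts on transcription mainly through the hypoxia-inducible factors, which bind hypoxia response elements and belong to the same protein family as BMAL1.

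The lung libraries held 3.34 to 3.81 M counts at ZT16-20 and 2.99 to 4.35 M at ZT4-8 in 6% oxygen, and 1.65 to 3.71 M at ZT16-20 and 3.32 to 4.19 M at ZT4-8 in air. Of 14231 genes listed, 12150 were tested. Levels below are counts per M (CPM) after scaling between libraries, each fold change is on the log2 scale with its standard error (SE), and a gene was called where its adjusted p was under 0.05 by edgeR's quasi-likelihood test with Benjamini-Hochberg adjustment over all tested genes. Summed over each marker list at 6% oxygen, the alveolar type 2 cell genes, which make surfactant, gave 43240 to 52310 CPM at ZT16-20 and 42510 to 50610 CPM at ZT4-8, and the club cell genes of the airway gave 61690 to 69950 and 54560 to 67380 CPM. Both ranges overlapped between the times, and the label lung held. Skeletal muscle markers summed to at most 36.1 CPM in the 8 libraries at 6% oxygen. In air they reached 1905 CPM in replicate D of ZT16-20 and 1921 and 2058 CPM in replicates B and C of ZT4-8. These 3 libraries bear on each comparison with air. Values without them are given for the counts of called genes and for some genes, and not beside every value in air. A further air library, replicate A of ZT16-20, had adipocyte markers at 2616 CPM, against 206.8 to 564 CPM in the other 7 air libraries, and thymocyte markers at 17.2 CPM, against at most 2.48 CPM. In bulk tissue, fewer cells of a type and less RNA per cell cannot be told apart.

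In 6% oxygen, 75 genes differed between the dark and the light phase, 0.617% of those tested. Of these, 39 were higher at ZT16-20 (0.321%) and 36 were lower (0.296%). In air 119 genes were called, 0.979% of those tested, with 42 higher (0.346%) and 77 lower (0.634%). The direction of the time-of-day difference in 13 genes called at both oxygen levels was the same for 12 and opposite for 1. These 13 genes were 17.3% of the 6% oxygen list and 10.9% of the air list. The test of the difference itself, the fold change at 6% oxygen minus the fold change in air, called 31 genes, 0.255% of those tested. The median log2 fold change of all tested genes was -0.011 at 6% oxygen. The 75 genes all had groups of 4 that did not overlap in CPM, as did 6.29% of all genes tested. The 75 were called on these same values, so this is a description. Leaving out 1 library moved the count of 75 by more than 1.5 times for 6 libraries. It was 43, 36 and 35 without replicates B, C and D of ZT4-8 in 6% oxygen, and 36, 44 and 38 without replicates A, B and D of ZT16-20 in 6% oxygen. In all 22 alternative settings 25 of the 75 genes were called. Without the 3 air libraries that held muscle markers, 90 genes were called at 6% oxygen, 29 in air and 19 for the difference. Without replicate A of ZT16-20 in air, 76 were called at 6% oxygen, 167 in air and 38 for the difference, of which 27 were among the 31.

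Nr1d1 and Dbp were among the genes that were lower in the dark phase, and Cry1 and Hlf among those that were higher. All 4 are clock genes, and each had a promoter in the RefSeq table on GRCm38.p6, which gives 250 bases before to 50 after each start site. The promoters of Cry1 and Nr1d1 are shown because they hold a match to one of the motifs searched. Cry1 (chr10:85185005-85185304, minus strand) holds an E-box, CACGTG, whose first base lies 60 bases before the start site. Nr1d1 (chr11:98775328-98775627, minus strand) holds ACGTGC, the letters searched here for a hypoxia response element, from 27 bases before the start site. Capitals mark the match.
Cry1: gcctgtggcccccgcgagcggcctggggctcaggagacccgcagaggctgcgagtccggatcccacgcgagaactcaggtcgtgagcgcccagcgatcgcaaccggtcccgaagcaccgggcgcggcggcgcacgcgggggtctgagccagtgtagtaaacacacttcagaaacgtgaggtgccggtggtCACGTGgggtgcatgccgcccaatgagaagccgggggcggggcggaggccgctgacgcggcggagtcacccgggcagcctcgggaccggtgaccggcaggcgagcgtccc
Nr1d1: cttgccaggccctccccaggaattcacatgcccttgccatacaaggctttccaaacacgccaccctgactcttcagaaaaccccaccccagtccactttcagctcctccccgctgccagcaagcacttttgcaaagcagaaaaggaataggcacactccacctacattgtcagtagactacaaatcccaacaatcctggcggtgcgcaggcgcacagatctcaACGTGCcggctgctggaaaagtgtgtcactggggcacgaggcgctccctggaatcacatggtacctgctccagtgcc
On both strands, CACGTG occurred in 7.15% of 32851 such promoters and ACGTGC in 5.91%. The ROR element core TAGGTCA occurred in 2.61% and the D-box (TTATGTAA or TTACGTAA) in 1.06%. The E-box and the hypoxia element share letters and can overlap. The shorter string ACGTG, contained in ACGTGC, also occurs in the Cry1 and Dbp windows. Dbp and Hlf held none of the 4 motifs in this window, which says only that these letters are not there.

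In the second loop, Nr1d1 had a time-of-day difference at both oxygen levels. It encodes REV-ERBα, a haem-binding repressor of Arntl (chromosome 11, 98767932 to 98775333, minus strand, GENCODE vM21 on mm10). Nr1d1 had 7.88, 13.01, 10.7 and 10.7 CPM at ZT16-20 in 6% oxygen, against 250.4, 248, 196 and 169 CPM at ZT4-8. All 4 dark-phase libraries were far below all 4 light-phase ones, with a log2 fold change of -4.35 ± 0.17 (SE, adjusted p = 4.14e-15). In air Nr1d1 had 4.29, 3.54, 4.21 and 2.505 CPM at ZT16-20, against 182, 186, 160.2 and 200.5 CPM at ZT4-8, a log2 fold change of -5.61 ± 0.19. The dark-phase level was above that in air with no overlap, while the light-phase levels overlapped. The difference between the fold changes was 1.26 ± 0.26 (adjusted p = 0.0285). It missed the threshold in 10 of 21 alternatives (adjusted p up to 0.146), among them the fit without the 3 air libraries and those without single libraries of either oxygen level. Nr1d2, the REV-ERBβ gene, was at 2.54 to 7.94 CPM in the dark and 8.47 to 13.2 CPM in the light phase in 6% oxygen and did not pass there (log2 fold change -0.88 ± 0.26, adjusted p = 0.19). It was called in air at -2.27 ± 0.29, and the difference was not called (1.39 ± 0.40, adjusted p = 0.204).

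The PER and CRY repressors were split. Cry1, a repressor of the BMAL1 pair (chromosome 10, 85131700 to 85185064, minus strand), had 38.8, 32.7, 29.3 and 31.8 CPM at ZT16-20 in 6% oxygen and 8.66, 10.3, 8.99 and 12.5 CPM at ZT4-8. The groups lay apart at a log2 fold change of 1.70 ± 0.22 (adjusted p = 0.000182), against 1.39 ± 0.21 in air, and the difference was not called (adjusted p = 0.859). Per3 had 13.04, 11.4, 14.97 and 13.2 CPM at ZT16-20 and 9.35, 8.46, 5.82 and 4.25 CPM at ZT4-8 in 6% oxygen. Its fold change there was 0.94 ± 0.22 on the log2 scale and missed the threshold (adjusted p = 0.0509), while it was -0.88 ± 0.21 in air (adjusted p = 0.0334). At 6% oxygen Per3 was called in 4 of 22 alternatives (RLE scaling, DESeq2, and without replicate A of ZT4-8 in 6% oxygen or D of ZT16-20 in air), and its air call was lost in 8 (adjusted p up to 0.15). The difference of 1.82 ± 0.30 was called (adjusted p = 0.00315) in all its alternatives. Per2 ran at 59.1 to 79.1 CPM in the dark and 35.2 to 47.8 CPM in the light phase at 6% oxygen, without overlap, and did not pass (0.64 ± 0.16, adjusted p = 0.0852). Per1, which also responds to stress hormones and light, ran at 166 to 283 CPM and 292 to 397 CPM (-0.69 ± 0.22, adjusted p = 0.292). Cry2 overlapped between the times (0.09). The further repressors Ciart (-0.70 ± 0.18, adjusted p = 0.0811) and Bhlhe40 (-0.26 ± 0.12, adjusted p = 0.47) were not called at 6% oxygen. Bhlhe40 stood at 139.9 to 178 CPM and 187 to 199 CPM there, against 20.00 to 23.6 and 28.7 to 43.9 CPM in air. By DESeq2, 5 of the 9 tested repressor genes were called at 6% oxygen, against 2 by edgeR. Over all genes, DESeq2 called 114 there and edgeR 75, the latter 0.617% of those tested.

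Arntl and Npas2 among the activators, and the bZIP genes Dbp, Hlf, Tef and Nfil3, had a called difference between the oxygen levels. Arntl, the BMAL1 gene (chromosome 7, 113207465 to 113314126, plus strand), had 17.3, 11.7, 11.9 and 8.22 CPM at ZT16-20 and 7.27, 11.3, 14.01 and 16.8 CPM at ZT4-8 in 6% oxygen. The groups overlapped throughout and the log2 fold change was -0.03 ± 0.25 (adjusted p = 0.982). In air it had 23.3, 30.1, 26.9 and 39.5 CPM at ZT16-20, against 2.78, 2.68, 4.704 and 3.895 CPM at ZT4-8, a log2 fold change of 3.06 ± 0.27 (adjusted p = 1.84e-07). At 6% oxygen both times thus lay between the dark and the light level in air, and the difference was -3.09 ± 0.37 (adjusted p = 5.69e-05). Npas2, a partner of BMAL1, was low, with 0.909, 0.952, 1.83 and 0.274 CPM at ZT16-20 and 3.12, 2.31, 2.91 and 2.36 CPM at ZT4-8 in 6% oxygen. It had a log2 fold change of -1.41 ± 0.43 (adjusted p = 0.22), against 2.40 ± 0.40 in air, and a called difference of -3.80 ± 0.59 (adjusted p = 0.00137). Rora overlapped between the times (0.22).

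Dbp, an activator driven directly through E-boxes (chromosome 7, 45705088 to 45710203, plus strand), had 20.01, 18.7, 23.2 and 22.5 CPM at ZT16-20 in 6% oxygen, against 108, 81.8, 59.7 and 47.5 CPM at ZT4-8. The dark-phase libraries were all lower, with a log2 fold change of -1.80 ± 0.19 (adjusted p = 6.4e-06). The Dbp libraries in air held 10.99, 13.6, 15.5 and 11.3 CPM at ZT16-20, against 287, 302, 267 and 296 CPM at ZT4-8 (-4.49 ± 0.21). The 4 light-phase libraries in 6% oxygen lay below all 4 in air, the 4 dark-phase ones above, and the difference was 2.68 ± 0.27 (adjusted p = 1.22e-05). Hlf, of the same family (chromosome 11, 90336536 to 90390895, minus strand), had 18.5, 25.1, 19.9 and 24.1 CPM at ZT16-20 in 6% oxygen, against 12.8, 8.98, 5.29 and 7.32 CPM at ZT4-8. It was higher in the dark phase by 1.37 ± 0.22 on the log2 scale (adjusted p = 0.00145). The air values of Hlf were 22.8, 25.4, 24.2 and 26.6 CPM at ZT16-20 and 32.5, 47.3, 29.2 and 43.3 CPM at ZT4-8, with no call (-0.62 ± 0.19, adjusted p = 0.14). The difference was called at 1.99 ± 0.29 (adjusted p = 0.000749). Tef, the third PAR bZIP factor, had 198, 199, 199 and 175 CPM at ZT16-20 and 234, 148, 124 and 115 CPM at ZT4-8 in 6% oxygen, overlapping at 0.32 ± 0.17. Without replicate A of ZT4-8 in 6% oxygen, the highest there, the log2 fold change was 0.58 and was called (adjusted p = 0.049). In air it was lower in the dark phase (-1.11 ± 0.17), and the difference was 1.43 ± 0.24 (adjusted p = 0.00402). Nfil3, which competes at the same element, had 70.9, 78.7, 46.4 and 53.2 CPM and 43.6, 51.8, 59.5 and 59.3 CPM in 6% oxygen, overlapping at 0.21 ± 0.16. In air Nfil3 had 21.7, 18.3, 18.4 and 28.2 CPM at ZT16-20, against 6.12, 5.06, 5.94 and 4.35 CPM at ZT4-8 (2.02 ± 0.21), and the difference was -1.81 ± 0.27 (adjusted p = 0.000997). All 8 libraries in 6% oxygen held more Nfil3 than any of the 8 in air.

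**Figure D1:**
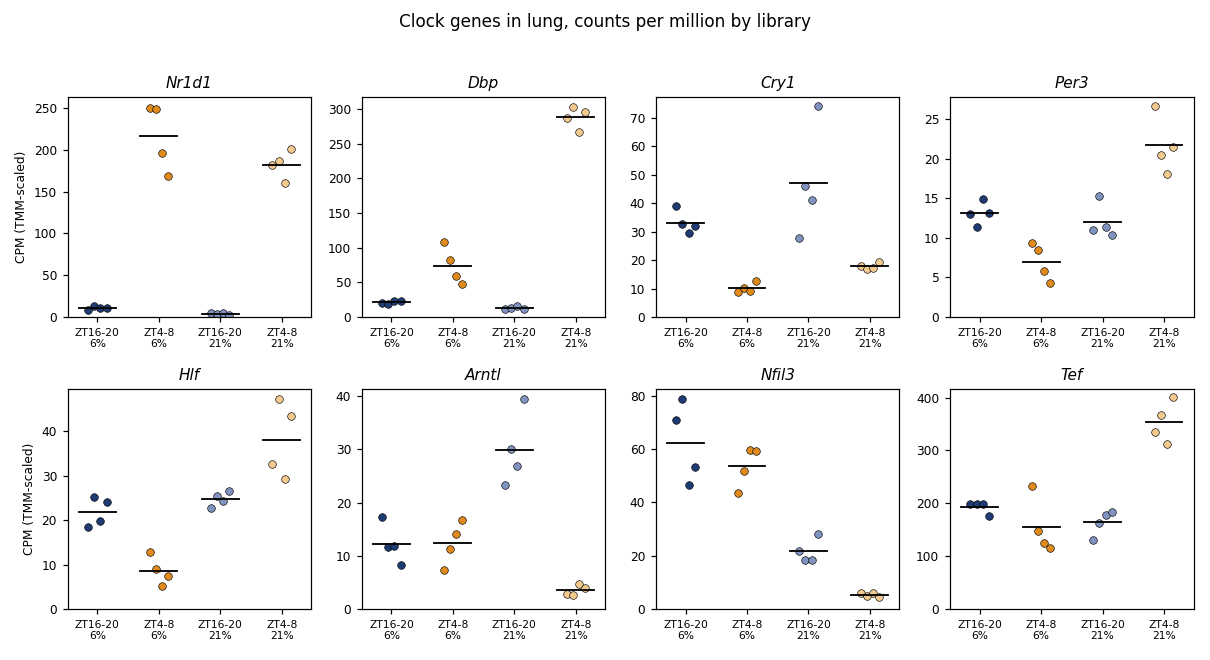
Level of 8 clock genes in each of the 16 lung libraries (CPM, linear axes from 0) for ZT16-20 and ZT4-8 in 6% oxygen and then in 21% oxygen; points are libraries and lines are means of 4. Nr1d1 and Cry1 separate by time at both oxygen levels, Per3 in opposite directions, Arntl and Nfil3 separate by time only in air, and Hlf is higher at ZT16-20 in 6% oxygen.

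Outside the clock, Cys1 was the gene with the largest dark-phase excess among the genes named by rule, which took up to 12 called genes in each direction by fold change. Cys1 encodes cystin, a protein of primary cilia (chromosome 12, 24665833 to 24681813, minus strand). It had 116, 109.5, 128 and 101 CPM at ZT16-20 in 6% oxygen, against 39.1, 35.1, 28.8 and 28.3 CPM at ZT4-8, a log2 fold change of 1.80 ± 0.14 (adjusted p = 2.59e-08). Glt8d2, which encodes a glycosyltransferase-like protein, had 13.04, 16.2, 12.2 and 13.98 CPM, against 5.54, 5.39, 7.14 and 6.37 CPM (1.17 ± 0.23, adjusted p = 0.0116). Its groups lay apart, and the call was lost without replicate B of either time at 6% oxygen (adjusted p up to 0.0544). Fam107a, an actin-binding protein gene, had 36.99, 27.3, 41.2 and 33.5 CPM, against 16.97, 15.9, 16.9 and 12.5 CPM (1.16 ± 0.22, adjusted p = 0.0125). It lost its call without replicate D of ZT4-8 or replicate A of ZT16-20 in 6% oxygen (adjusted p up to 0.0767). Fam57b, a gene of ceramide synthesis, had 25.8, 20.9, 18.02 and 18.4 CPM, against 6.24, 8.46, 13.5 and 9.92 CPM (1.11 ± 0.20, adjusted p = 0.00744).

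Vpreb3, known from B-cell precursors, had 109, 85.04, 144 and 125 CPM at ZT16-20 in 6% oxygen, against 56.8, 57.98, 53.9 and 54.8 CPM at ZT4-8 (1.05 ± 0.15, adjusted p = 0.000638). The 5 tested B-cell markers were not called, and the sum over the 6 markers listed in the table ran at 83.3 to 215 CPM in the dark and 157 to 202 CPM in the light phase. The glutathione transferase gene Gsta3 had 795, 941, 721 and 1055 CPM, against 430.2, 365, 461 and 450.2 CPM (1.04 ± 0.15, adjusted p = 0.000369), and was also called in air (0.68 ± 0.14). Its relative Gsta2 had 30.2 to 67.7 CPM, against 19.8 to 22.2 CPM (1.04 ± 0.23, adjusted p = 0.0321), and lost its call in 12 of 22 alternatives (adjusted p up to 0.142). The Gsta genes are close copies, so the split of reads between them is uncertain. Sec14l2, a lipid and tocopherol transfer protein gene, had 59.4, 38.7, 55.6 and 59.5 CPM, against 33.6, 24.1, 24.9 and 23.9 CPM (1.01 ± 0.16, adjusted p = 0.0012). Nid2, the basement membrane protein nidogen 2, had 26.98, 32.4, 25.1 and 26.3 CPM, against 12.5, 10.8, 13.2 and 18.2 CPM (1.01 ± 0.18, adjusted p = 0.00638). Among these, Gsta3 alone was called in air.

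Genes lower in the dark phase included several secreted proteins. Spon2, the matrix and host-defence protein spondin 2 (chromosome 5, 33198184 to 33218455, minus strand), had 6.97, 14.3, 5.499 and 14.8 CPM at ZT16-20 in 6% oxygen, against 44.7, 42.6, 39.4 and 49.8 CPM at ZT4-8, a log2 fold change of -2.08 ± 0.29 (adjusted p = 0.00145). Acoxl, an acyl-CoA oxidase relative, had 39.7, 52.4, 45.5 and 34.3 CPM, against 153, 122, 139.6 and 139 CPM (-1.69 ± 0.14, adjusted p = 5.23e-08). Cxcl15, the mouse airway chemokine lungkine, which draws neutrophils (chromosome 5, 90794534 to 90803067, plus strand), had 862, 734, 858 and 887 CPM, against 2044, 2018, 2398 and 2153 CPM (-1.37 ± 0.12, adjusted p = 9.96e-08). Neutrophil markers summed to 274 to 492 CPM in the dark and 415 to 703 CPM in the light phase, overlapping, with 0 of 9 called by edgeR. Their part in the Cxcl15 result was not tested.

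Aoc1, the histamine-degrading diamine oxidase, had 9.095, 6.66, 14.97 and 15.6 CPM at ZT16-20 in 6% oxygen, against 32.6, 38.99, 25.6 and 26.4 CPM at ZT4-8 (-1.40 ± 0.23, adjusted p = 0.00223), and was also lower in air (-1.61 ± 0.25). Igfbp3, a carrier of insulin-like growth factors, had 112, 101, 69.96 and 127 CPM, against 189.8, 216, 178 and 161 CPM (-0.86 ± 0.15, adjusted p = 0.00638). Cpm, the membrane carboxypeptidase M, had 42.1, 49.2, 50.7 and 46.3 CPM, against 83.1, 77.98, 100.2 and 68.9 CPM (-0.81 ± 0.13, adjusted p = 0.00161). These 3 genes were called in all alternatives. The other 4 lower genes taken by the rule had lower levels and lost their calls in some alternatives. Nxph3, a neurexin ligand, had 5.19 to 7.402 CPM, against 10.4 to 16.8 CPM (-1.25 ± 0.26; lost in 6 of 22, adjusted p up to 0.117). Colq, which anchors acetylcholinesterase, had 5.15 to 9.84 CPM, against 14.01 to 20.3 CPM (-1.20 ± 0.25; lost in 5, up to 0.126). Oas3, an interferon-induced enzyme, had 4.39 to 8.57 CPM, against 11.9 to 14.9 CPM (-1.13 ± 0.24; lost in 7, up to 0.142), and Plac8 had 3.33 to 6.72 CPM, against 8.99 to 12.6 CPM (-1.07 ± 0.23; lost in 9, up to 0.136).

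**Figure D2:**
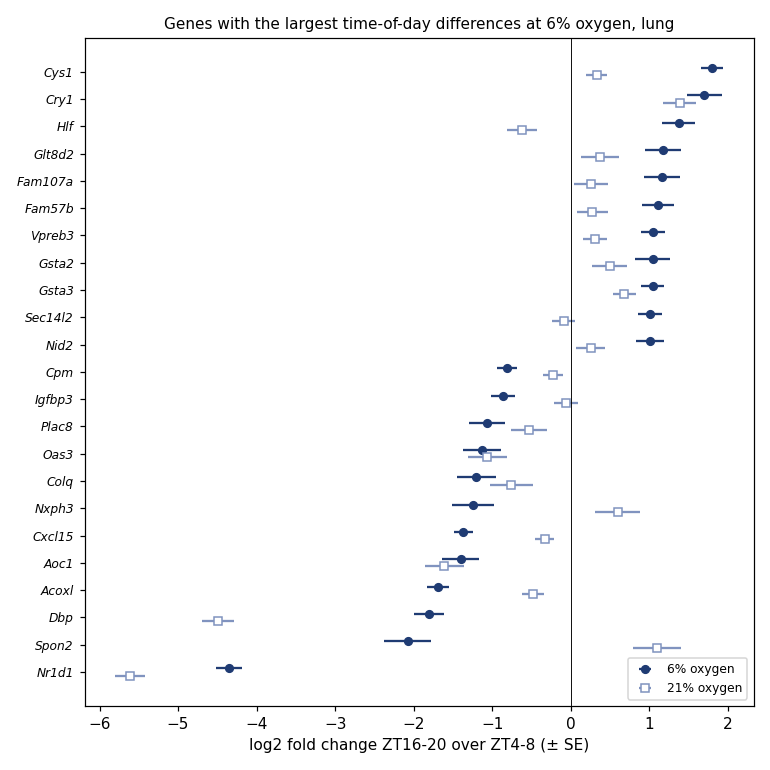
Log2 fold change of ZT16-20 over ZT4-8 with its SE for genes named by rule, at 6% oxygen (filled circles) and at 21% oxygen (open squares), from 1 edgeR fit of 16 lung libraries. Cry1, Aoc1 and Oas3 have similar values at both oxygen levels, Dbp and Nr1d1 are farther from 0 in air, and Spon2, Hlf and Nxph3 lie on opposite sides of 0.

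The genes called with the same direction at both oxygen levels, 12 in number, made up 16% of the 6% oxygen list and 10.1% of the air list. Of these, 5 were higher in the dark phase, among them Cry1, Gsta3, Ces1d and Lonrf3, and 7 were lower (Nr1d1, Dbp, Aoc1, Elovl1, Pim3, Gngt2 and Oas3). Ces1d, a carboxylesterase of lipid breakdown with close copies in the genome, had 1614 to 1915 CPM at ZT16-20, against 1026 to 1239.7 CPM at ZT4-8 in 6% oxygen (0.65 ± 0.11; 0.57 ± 0.11 in air). Elovl1, an elongase of very long fatty acids, had 463 to 538 CPM, against 726 to 829 CPM (-0.65 ± 0.11; -0.47 ± 0.11 in air). Pim3, a serine/threonine kinase gene, had 275 to 327 CPM, against 446 to 528 CPM (-0.70 ± 0.11; -0.47 ± 0.12 in air), and every library at 6% oxygen exceeded every library in air. Lonrf3, a RING finger protein gene, was low at 5.805 to 12.3 CPM, against 1.73 to 3.07 CPM (1.73 ± 0.35; 1.65 ± 0.31 in air), and lost its call at 6% oxygen in 4 of 22 alternatives (adjusted p up to 0.104). Gngt2, a G-protein gamma subunit gene, lost its call in 16 (adjusted p up to 0.158). The air call of Pim3 (adjusted p = 0.0499) was lost in 18 of 22 alternatives (adjusted p up to 0.219), that of Gngt2 in 13 (up to 0.474), that of Elovl1 in 9 (up to 0.474) and that of Oas3 in 6 (up to 0.58). The air call of Gsta3 was lost in 6 (up to 0.0931), that of Ces1d in 3 (up to 0.265), and those of Cry1 and Lonrf3 in the fit without the 3 air libraries (adjusted p = 0.0524 and 0.105). Among those named, Nr1d1 and Dbp had a called difference between the oxygen levels. Without replicate C of ZT4-8 in 6% oxygen the class held 7 genes. Without the 3 air libraries that held muscle markers it held 5, of which 4 were among the 12.

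A class of 18 genes, 15.1% of the air list, was called in air, was smaller or not called at 6% oxygen, and had a called difference. In 17 of them the fold change was nearer to 0 at 6% oxygen, and in 1, Per3, it was of opposite sign and slightly farther from 0. At 6% oxygen 16 of the 18 were not called, and 13 had fold changes of opposite sign at the 2 oxygen levels. The class contained Arntl, Npas2, Per3, Dbp, Nr1d1, Tef and Nfil3, described above. Rasl11a, a small GTPase gene, had 57.6, 50.5, 50.4 and 52.6 CPM at ZT16-20 and 39.5, 39.8, 48.1 and 43.4 CPM at ZT4-8 in 6% oxygen (0.30 ± 0.12, adjusted p = 0.354). In air it had 80.7, 91.6, 94.2 and 90.8 CPM, against 22.8, 20.5, 24.8 and 24.7 CPM (1.94 ± 0.12), so both times at 6% oxygen fell between the levels in air, and the difference was -1.64 ± 0.16 (adjusted p = 7.14e-06). Leo1, a subunit of the PAF1 elongation complex, had 17.5 to 18.5 CPM and 17.7 to 24.9 CPM in 6% oxygen, against 26.5 to 36.95 CPM at ZT16-20 and 10.3 to 15.8 CPM at ZT4-8 in air. Its difference was -1.35 ± 0.24 (adjusted p = 0.00525). Fdps, the farnesyl diphosphate synthase of the cholesterol pathway, had 37.4 to 60.6 CPM and 31.5 to 38.2 CPM in 6% oxygen, against 20.98 to 29.2 CPM and 36.97 to 52.9 CPM in air, with a difference of 1.29 ± 0.22 (adjusted p = 0.00402). Acot1, an acyl-CoA thioesterase, had 64.7 to 72.5 CPM and 76.7 to 95.9 CPM, against 153 to 274 CPM and 104 to 142 CPM in air, with a difference of -1.09 ± 0.21 (adjusted p = 0.0121). The differences of Fdps and Acot1 were lost without the 3 air libraries (adjusted p = 0.0838 for each).

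The other 7 genes of this class fell outside the naming rule and were chosen after their values were seen. Alas1, the first enzyme of haem synthesis, had 589 to 716 CPM at ZT16-20 and 488 to 596 CPM at ZT4-8 in 6% oxygen, against 342 to 423 CPM and 463 to 577 CPM in air (difference 0.75 ± 0.15, adjusted p = 0.0216). Cebpd, a C/EBP transcription factor gene, had 32.05 to 48.8 CPM and 41.6 to 54.4 CPM in 6% oxygen, against 5.63 to 16.9 CPM and 3.21 to 4.73 CPM in air (difference -1.95 ± 0.34, adjusted p = 0.0056). All 8 libraries in 6% oxygen exceeded all 8 in air for Cebpd. Eln, the elastin gene, had 214 to 336 CPM and 284 to 369.9 CPM in 6% oxygen, against 342 to 541 CPM and 199.9 to 256 CPM in air (difference -1.06 ± 0.21, adjusted p = 0.0183). F13a1, the A subunit of coagulation factor XIII, had 23.3 to 31.2 CPM and 23.3 to 34.6 CPM, against 17.1 to 29.2 CPM and 46.1 to 64.5 CPM (difference 1.21 ± 0.24, adjusted p = 0.0216). Lilr4b, an inhibitory receptor of myeloid cells, had 36.4 to 46.3 CPM and 45.99 to 56.9 CPM, against 10.7 to 13.2 CPM and 25.8 to 33.7 CPM (difference 0.96 ± 0.20). Avpi1 and the transcript Scarletltr had differences of 0.71 ± 0.15 and 3.47 ± 0.53. Of these 7, the difference of Scarletltr was called in all alternatives. Those of Alas1, Cebpd, Eln, F13a1, Lilr4b and Avpi1 were lost without the 3 air libraries, and 7 genes then remained in the class. A macrophage-marker sum of 621 to 2102 CPM in the dark and 549 to 838 CPM in the light phase at 6% oxygen overlapped between the times.

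Differences that appeared at 6% oxygen, called there and not in air and with a called difference, numbered 11, or 14.7% of the 6% oxygen list. Of these, 6 were higher in the dark phase (Cys1, Hlf, Sec14l2, Gpr155, Cbr2 and Angptl2) and 5 were lower (Spon2, Acoxl, Cxcl15, Gem and Nxph3). In 8 of the 11 the sign was opposite in air. For 10 of the 11 the light-phase libraries in 6% oxygen did not overlap those in air, and for 4 of the 11 the dark-phase libraries did not. Among all tested genes 26.7% did not overlap between 6% oxygen and air at ZT4-8, and 21.2% at ZT16-20. The class was chosen on these values, so its counts are a description.

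Cys1 in air had 109, 103, 95.02 and 140 CPM at ZT16-20 and 84.2, 91.3, 76.5 and 104 CPM at ZT4-8, so the light-phase libraries in 6% oxygen were the low ones, and the difference was 1.47 ± 0.19 (adjusted p = 0.000217). Spon2 in air had 25.7, 33.7, 22.9 and 14.7 CPM at ZT16-20 and 14.2, 7.73, 15.1 and 7.33 CPM at ZT4-8, with a log2 fold change of 1.10 ± 0.30 (adjusted p = 0.0979), opposite in sign to that at 6% oxygen. Its difference was -3.18 ± 0.42 (adjusted p = 0.00091). Cxcl15 in air had 943, 1092, 1112 and 1184 CPM and 1409, 1055, 1609 and 1382 CPM, and the difference was -1.03 ± 0.17 (adjusted p = 0.0022). For Cxcl15 the light-phase libraries at 6% oxygen were above, and the dark-phase ones below, those in air at the same time. Acoxl in air had 63.5, 49.04, 52.9 and 40.7 CPM and 68.9, 64.8, 77.5 and 76.5 CPM, and the difference was -1.21 ± 0.20 (adjusted p = 0.00247). These 4 differences and that of Hlf were called in all alternatives.

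Gem, a GTPase gene, had 31.8, 33.95, 26.3 and 23.03 CPM at ZT16-20 and 43.3, 45.1, 48.1 and 49.8 CPM at ZT4-8 in 6% oxygen (-0.70 ± 0.15, adjusted p = 0.0231), against 19.3, 19.5, 15.5 and 21.6 CPM and 13.9, 13.98, 9.903 and 11.7 CPM in air. Every library in 6% oxygen exceeded every library in air, and the difference was -1.32 ± 0.22 (adjusted p = 0.00402). It was lost without the 3 air libraries (adjusted p = 0.0749). Gpr155, a membrane protein of lysosomal cholesterol sensing, had 85.8, 71.4, 81.6 and 89.9 CPM, against 55.1, 47.7, 53.9 and 44.1 CPM in 6% oxygen (0.71 ± 0.13), and a difference of 0.95 ± 0.18 (adjusted p = 0.017). The difference of Gpr155 was lost without replicate D of ZT4-8 in air or in 6% oxygen (adjusted p up to 0.064). Sec14l2 was at 40.2 to 55.01 CPM and 43.1 to 53.7 CPM in air, with a difference of 1.10 ± 0.22 that was lost in 6 of 21 alternatives (adjusted p up to 0.198). Cbr2, an airway carbonyl reductase and club cell marker, averaged 14247 ± 752 CPM in the dark and 9394 ± 791 CPM in the light phase at 6% oxygen (SD, n = 4 each). Its log2 fold change was 0.60 ± 0.10, and its difference of 0.68 ± 0.14 was lost in 13 of 21 alternatives (adjusted p up to 0.122). The other 4 club cell markers were not called. Angptl2, an angiopoietin-like secreted protein outside the naming rule, had 115 to 128 CPM, against 74.8 to 93.5 CPM at 6% oxygen, and its difference (0.71 ± 0.15) was lost in 14 alternatives. The difference of Nxph3 was lost in 13 (adjusted p up to 0.341). Without replicate D of ZT4-8 in 6% oxygen the class held 5 genes, without B or C of that group 6 each, and without replicate D of ZT4-8 in air, B of ZT16-20 in air, or C or D of ZT16-20 in 6% oxygen 7 each. Without the 3 air libraries it also held 7.

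**Figure D3:**
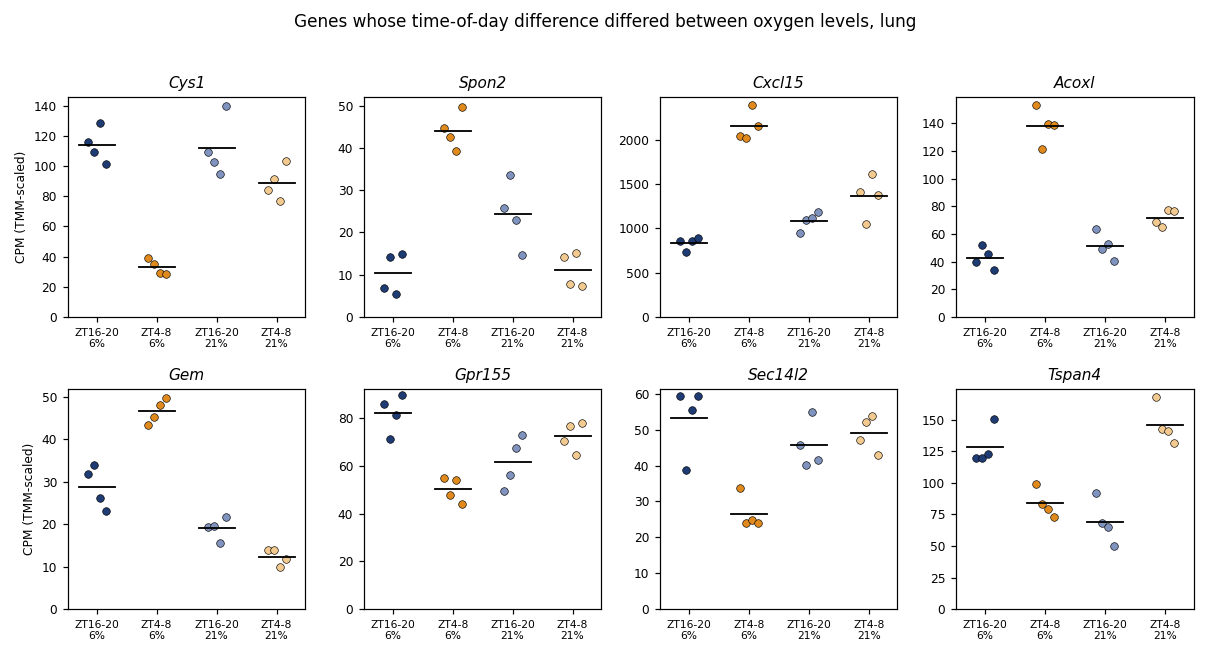
Level in each of the 16 lung libraries (CPM, linear axes from 0) for 8 genes whose time-of-day difference differed between oxygen levels, for ZT16-20 and ZT4-8 in 6% oxygen and then in 21% oxygen; lines are means of 4. In Cys1, Spon2, Cxcl15, Acoxl and Gem the ZT4-8 libraries in 6% oxygen stand apart from the other 3 groups, and Tspan4 is reversed between oxygen levels.

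A single gene, Tspan4, was called in opposite directions. It encodes a tetraspanin (chromosome 7, 141475240 to 141493427, plus strand) and was listed among clock outputs. It had 119, 119.9, 123 and 151 CPM at ZT16-20, against 99.4, 83.4, 79.03 and 73.2 CPM at ZT4-8 in 6% oxygen (0.62 ± 0.14, adjusted p = 0.0452). In air it had 92.2, 67.9, 65.02 and 49.8 CPM, against 168, 143, 141 and 132 CPM (-1.08 ± 0.15, adjusted p = 0.000146). The difference of 1.70 ± 0.21 (adjusted p = 5.69e-05) was called in all alternatives. The call at 6% oxygen was lost in 13 of 22 (adjusted p up to 0.227), without any 1 of 13 single libraries, so that the class was then empty. Of genes called at both oxygen levels in the same direction, 0 had a called difference towards a larger fold change at 6% oxygen. Fbn1, the fibrillin gene of elastic fibres, had a called difference (-0.86 ± 0.19, adjusted p = 0.0417) without a call at either oxygen level, and lost it in 15 of 21 alternatives.

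**Figure D4:**
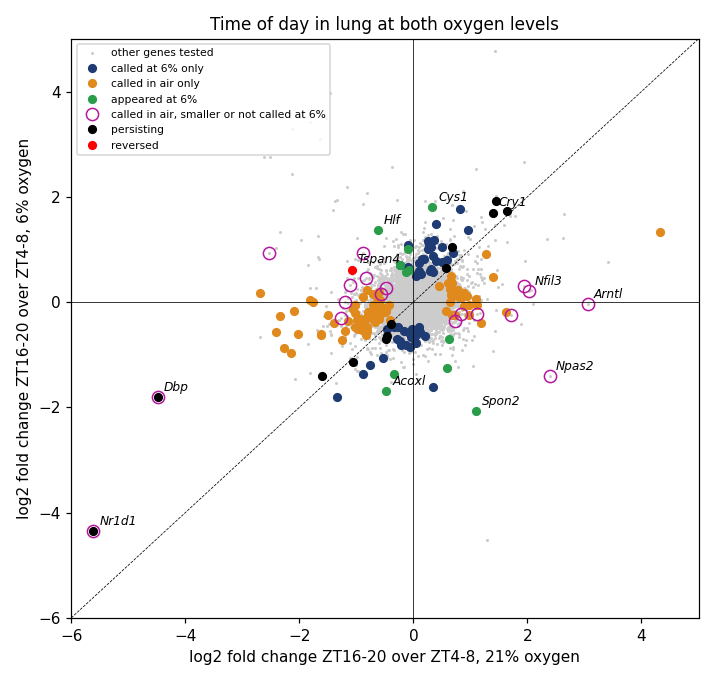
Log2 fold change of ZT16-20 over ZT4-8 in lung for all 12150 tested genes, at 21% oxygen (horizontal) and 6% oxygen (vertical), with the line of equal values dashed. Coloured genes are those called at either level, by class; of the 18 open circles, 17 lie nearer to 0 on the vertical axis than on the horizontal one, and the 11 genes that appeared lie off 0 vertically.

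The remaining 51 genes called at 6% oxygen had neither a call in air nor a called difference, so they were not shown to differ from air. In air 40 of the 51 had the same sign. Lack of a called difference favours the same sign, so this count is a description. Of all 75 genes called at 6% oxygen, 55 had the same sign in air. Several stood in the lists of pathways compared, heat shock genes among them. Hspa8, the constitutive HSC70 chaperone, had 1814, 1356, 1544 and 1472 CPM at ZT16-20 in 6% oxygen, against 1019, 961, 794 and 836 CPM at ZT4-8 (0.78 ± 0.12, adjusted p = 0.00161). Hsph1, its HSP110-type partner, had 113, 89.5, 90.1 and 88.00 CPM, against 51.96, 46.4, 54.2 and 54.1 CPM (0.88 ± 0.18, adjusted p = 0.0246), and lost its call in 8 of 22 alternatives (adjusted p up to 0.0999). These 2 of 18 tested heat shock genes were called, against 0.617% of all genes tested. Of the 18, 16 were positive, and the median was 0.31, against -0.011 over all genes. In air 1 of 18 was called higher, against 0.346% of all genes tested, with a median of 0.22, and no difference was called. Hspa8 has processed copies in the genome that could share its reads.

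Lipid enzymes went both ways. Scd2, a stearoyl-CoA desaturase gene, had 805, 771, 729 and 764 CPM at ZT16-20 in 6% oxygen, against 529, 514, 593 and 536 CPM at ZT4-8 (0.50 ± 0.10, adjusted p = 0.0186; lost in 6 of 22 alternatives, up to 0.0845). With Elovl1, 2 of 14 genes of fatty acid and surfactant lipid synthesis were called, 1 in each direction, and the median was 0.21. Of all genes tested 0.617% were called at 6% oxygen, the share to set beside this and the list counts that follow. Gsta3 was the 1 of 15 NRF2 antioxidant genes called, with 13 of 15 positive and a median of 0.22. Of 19 extracellular matrix genes, Loxl1, a lysyl oxidase that crosslinks elastin, was called lower, with 71.2, 88.8, 60.5 and 102 CPM, against 154, 123, 124 and 151 CPM (-0.77 ± 0.18, adjusted p = 0.0452). It lost the call in 15 of 22 alternatives (adjusted p up to 0.189). Cxcl15 was the 1 of 22 NF-kB targets and cytokines called. Emcn, the endothelial sialomucin endomucin, had 27.3, 26.02, 36.7 and 31.2 CPM, against 45.03, 50.3, 46.8 and 55.7 CPM (-0.71 ± 0.14, adjusted p = 0.0149), the 1 of 11 endothelial markers called. It lost the call in 5 of 22 (adjusted p up to 0.0895). The 11 endothelial markers together summed to 4014 to 5442 CPM in the dark and 5514 to 6338 CPM in the light phase at 6% oxygen, without overlap, and 4 of 11 were positive. Among all single genes tested, 6.29% did not overlap, which is not a share of list sums. Some other list sums overlapped and some did not. Those without overlap included heat shock proteins (4202 to 5091 and 3107 to 3381 CPM) and NF-kB targets and cytokines (3267 to 3737 and 4794 to 5243 CPM). They also included clock repressors (603 to 722 and 862 to 1038 CPM) and NRF2 antioxidant genes (5218 to 6279 and 4657 to 5036 CPM). Cxcl15 alone, at the levels given above, made up most of the difference between the NF-kB sums. The sums without it were not taken. The part of the endothelial sum in the lower level of Emcn was not tested.

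Of 24 function lists, 15 had no member called by edgeR at 6% oxygen, and 17 of the 19 marker lists with a tested gene had none. The thymocyte list had 0 genes tested. Over those 17 marker lists, 11 of 98 tested genes had an unadjusted p under 0.05, against 9.39% of all genes tested, and 2 were called by DESeq2. Of 25 HIF targets, 0 were called between the times at 6% oxygen by edgeR (median 0.091, 15 positive, 4 with an unadjusted p under 0.05), and 0 by DESeq2. Adm, the vasodilator peptide adrenomedullin, had a log2 fold change of 0.48 ± 0.17 (adjusted p = 0.328), and Slc2a1, the GLUT1 glucose transporter, 0.30 ± 0.14 (adjusted p = 0.483). Adm was higher in the dark phase in air (1.39 ± 0.23, adjusted p = 0.00177). Of 9 glycolysis genes, 0 were called (median 0.10, 1 with an unadjusted p under 0.05, 0 by DESeq2), with Ldha, lactate dehydrogenase, at 0.21 ± 0.11. Of 27 immediate early genes, 0 were called (median -0.032, 3 with an unadjusted p under 0.05, 0 by DESeq2). Of 20 glucocorticoid-induced genes, 0 were called by edgeR at 6% oxygen (median 0.067, 3 with an unadjusted p under 0.05) and 1 by DESeq2. In air 5 glucocorticoid-induced genes were higher and 1 lower, against 0.346% and 0.634% of all genes tested. The air count was not taken again without the air libraries that held muscle markers. The difference was called for 1 of 20, against 0.255% of all genes tested. Fkbp5, a glucocorticoid-induced cochaperone gene, had 0.60 ± 0.15 at 6% oxygen (adjusted p = 0.0869).

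Also without a call at 6% oxygen were clock protein turnover (7 tested, median 0.082), cold-inducible RNA-binding proteins (2, 0.13), endoplasmic reticulum stress (14, 0.11) and the integrated stress response (14, -0.15). The same held for p53 targets (11, -0.0073), interferon-induced genes (17, -0.062), cholesterol synthesis (19, -0.0083) and fatty acid oxidation (13, 0.14). It held for vascular tone (17, 0.095), the VEGF and angiopoietin family (12, 0.063) and cell cycle genes (16, 0.30). Of the 142 genes tested in these 11 lists, 22 had an unadjusted p under 0.05, a larger share than the 9.39% of all genes tested. By DESeq2, 2 of the 142 were called. Ace, the angiotensin-converting enzyme made by lung capillaries, had 0.39 ± 0.10 (adjusted p = 0.122), and Vegfb 0.34 ± 0.11 (adjusted p = 0.274). Of clock-controlled outputs common to tissues, Lonrf3 and Tspan4, 2 of 12, were called, against 0.617% of all genes tested.

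Among neutrophil markers, 0 of 9 were called at 6% oxygen (median -0.53, 1 with an unadjusted p under 0.05, 0 by DESeq2). In air 6 of 9 were lower in the dark phase (median -1.62), against 0.634% of all genes tested. Their sum in air was 72.9 to 160 CPM at ZT16-20, against 359 to 592 CPM at ZT4-8. The neutrophil calls in air were not counted again without the air libraries that held muscle markers. Retnlg, a granulocyte secreted protein, had a log2 fold change of -0.57 ± 0.28 at 6% oxygen (adjusted p = 0.553) and -2.40 ± 0.32 in air (adjusted p = 0.0012). The difference between oxygen levels was called for 0 of 9 by edgeR, so the neutrophil genes were not shown to differ. Of the 9, 5 had an unadjusted p under 0.05 for it, against 7.62% of all genes tested. The difference, 6% oxygen minus air, was positive for 8 of the 9 (median 1.01). Abca3, the surfactant lipid pump of type 2 cells, was at -0.48 ± 0.12 (adjusted p = 0.0532), and 0 of 8 type 2 cell markers were called. Heart and fat markers varied between libraries. Cardiac muscle markers summed to 1649 to 2797 CPM in the dark and 987 to 2232 CPM in the light phase, and adipocyte markers to 317 to 1527 CPM and 123 to 756 CPM, both overlapping with 0 called at 6% oxygen. All 8 cardiac markers (median 0.54) and all 6 adipocyte markers (median 0.915) had positive fold changes there. The part of such tissue in other genes was not tested.

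A further 39 of the 75 called genes fell outside the naming rule and are described after their values were seen: 19 were higher in the dark phase, by 0.535 to 1.76 on the log2 scale, and 20 were lower. Enzymes of vitamin and alcohol metabolism were among the higher ones. Pdxk, the pyridoxal kinase that makes active vitamin B6, had 75.2 to 101 CPM at ZT16-20, against 45.1 to 59.9 CPM at ZT4-8 in 6% oxygen (0.75 ± 0.13, adjusted p = 0.00445). Adh1, an alcohol dehydrogenase, had 234 to 292 CPM, against 165 to 188 CPM (0.58 ± 0.11, adjusted p = 0.00761), and Aldh1a1, a retinaldehyde dehydrogenase, had 1451 to 1986 CPM, against 978 to 1143 CPM (0.62 ± 0.14, adjusted p = 0.0385). Pdxk and Adh1 were called in all alternatives and Aldh1a1 lost its call in 12 of 22. Matrix and secreted proteins included Col27a1, a fibrillar collagen (0.75 ± 0.17), Angptl7 (1.37 ± 0.29) and Hamp, the iron hormone hepcidin, at 6.97 to 13.2 CPM, against 1.796 to 4.49 CPM (1.48 ± 0.29). Membrane and transport genes were Ank, a pyrophosphate exporter (0.81 ± 0.16), Abca8a (0.54 ± 0.13) and Disp2 (0.94 ± 0.22). Fkbp11 (0.66 ± 0.15), Rhobtb1 (0.70 ± 0.16), Kank4 (0.82 ± 0.19), Mcf2l (0.60 ± 0.14), Zfp467 (0.56 ± 0.13), Abhd8 (0.57 ± 0.13) and Apol6 (1.76 ± 0.41) completed the named higher genes with Angptl2. The predicted genes Gm4956 and Gm14420 were also called. These calls, other than those of Pdxk and Adh1, were lost in 1 to 14 of 22 alternatives, with adjusted p of at most 0.231.

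Among the 20 lower genes outside the rule were Hdc, the histidine decarboxylase that makes histamine, with 116 to 131 CPM at ZT16-20, against 168 to 195 CPM at ZT4-8 (-0.58 ± 0.11, adjusted p = 0.0131). Gyg, the glycogenin primer of glycogen, had 93.8 to 102 CPM, against 140.3 to 174 CPM (-0.65 ± 0.13, adjusted p = 0.0117), and Mthfd1, a folate enzyme, had 120 to 154 CPM, against 161 to 275 CPM (-0.65 ± 0.14). Ndst1, which sulfates heparan chains, had 78.5 to 109 CPM, against 131 to 152 CPM (-0.62 ± 0.12, adjusted p = 0.0117). Receptors and channels were Ccrl2, a chemerin-binding receptor (-0.62 ± 0.13), Piezo2, a mechanically gated channel (-0.70 ± 0.15), and Ptprk, a receptor phosphatase (-0.66 ± 0.14). Ccnd1, the cyclin D1 gene, had 155 to 185 CPM, against 206 to 280.2 CPM (-0.51 ± 0.12, adjusted p = 0.0452). Pim3 and Gngt2 were described above. The list also held Litaf (-0.48 ± 0.10), Stk40 (-0.48 ± 0.11), Wdr45 (-0.47 ± 0.10), Glipr2 (-0.55 ± 0.12) and Ecm2 (-0.81 ± 0.18). Myh13 (-1.80 ± 0.37), Cttnbp2 (-1.62 ± 0.32) and Cyyr1 (-1.37 ± 0.30) had at most 10.3 CPM in any library at 6% oxygen. The clone-named genes 0610040J01Rik and 2010111I01Rik were called as well. Apart from Pim3, these calls were lost in 3 to 16 of 22 alternatives, with adjusted p of at most 0.201. Litaf, Stk40 and Pim3 stood higher in each library at 6% oxygen than in the libraries in air at the same time.

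Lung was then set against kidney and liver of the same mice at 6% oxygen, over 10649 genes tested in all 3 tissues. The time of day within each tissue came from 1 fit of 48 libraries without a mouse term, since time differed between mice. The differences between tissues came from a separate fit of the same 48 libraries with the mouse as a block. Levels in these fits are scaled across tissues and differ from those above. The time of day was called for 44 kidney genes (0.413%) and 425 liver genes (3.99%). Of the 75 lung genes called in the fit of 16 lung libraries, 57 were tested here. Of these, 10 were also called in kidney, 17.5% of the 57 and 22.7% of the kidney list, 9 with the same sign. In liver 14 were also called, 24.6% of the 57 and 3.29% of the liver list, all with the same sign. Cry1, Nr1d1 and Hspa8 were called in kidney and liver as well. So were Hsph1 and Tspan4, which in lung were called in the fit of 16 libraries and missed the threshold in that of 48 (adjusted p = 0.0584 and 0.0933). Nr1d1 had log2 fold changes of -4.34 ± 0.24 in lung, -3.75 ± 0.24 in kidney and -4.46 ± 0.25 in liver. Cry1 had 1.71 ± 0.22 in lung, 3.09 ± 0.29 in kidney and 2.38 ± 0.24 in liver. Hspa8 had 0.79 ± 0.16 in lung, 0.71 ± 0.16 in kidney and 0.91 ± 0.16 in liver. Hlf was also called in liver (0.80 ± 0.17), as were Gpr155 (0.58 ± 0.15), Ces1d (1.04 ± 0.15), Pdxk (0.78 ± 0.14) and Adh1 (0.83 ± 0.14). Arntl had -0.022 ± 0.27 in lung, 0.64 ± 0.28 in kidney and 0.45 ± 0.28 in liver, and was called in none of them.

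The lung minus kidney difference was called for 3 genes, 0.0282% of those tested, and lung minus liver for 66, 0.62%. Cpm was lower in the dark phase in lung (-0.80 ± 0.17) and higher in kidney (0.89 ± 0.20), a difference of -1.69 ± 0.25 (adjusted p = 0.000678), which was called in all alternatives. Cys1 differed by 1.54 ± 0.29 (adjusted p = 0.037), with 1.81 ± 0.20 in lung and 0.28 ± 0.19 in kidney. Ppargc1b, a coactivator of mitochondrial genes, differed by 2.00 ± 0.40 (adjusted p = 0.0429), with 0.93 ± 0.34 in lung and -1.03 ± 0.25 in kidney. Of the 3, Cpm alone remained without the mouse of replicate A or B at ZT16-20 or of replicate C at ZT4-8. The call of Cys1 was lost in 6 of 11 alternatives (adjusted p up to 0.134), and that of Ppargc1b in 6 (up to 0.236), the fit with no mouse block among them. Dbp was the clock gene whose difference from liver was called. It had -1.79 ± 0.26 in lung and -0.34 ± 0.26 in liver (adjusted p = 0.584), a difference of -1.48 ± 0.25 (adjusted p = 0.00126), which missed the threshold without the mouse block (adjusted p = 0.0504). Por, the electron donor of cytochrome P450 enzymes, had -0.035 ± 0.14 in lung and 1.42 ± 0.14 in liver, a difference of -1.46 ± 0.19 (adjusted p = 2.65e-05). Inmt, a methyltransferase abundant in lung, had -0.03 ± 0.17 and 1.70 ± 0.17, a difference of -1.71 ± 0.23 (adjusted p = 2.65e-05). The differences of Hsd3b7, a bile acid synthesis enzyme (1.25 ± 0.19), Eif4ebp3, a translation repressor (-1.23 ± 0.19), and Fbxo21 (1.41 ± 0.24) were also called. Of the 57 lung genes, the difference was called for 2 against kidney and 7 against liver. The count of 66 was 25, 32 and 35 without the mice of replicates B, C and D at ZT4-8, and 41, 34 and 37 without those of A, C and D at ZT16-20.

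**Figure D5:**
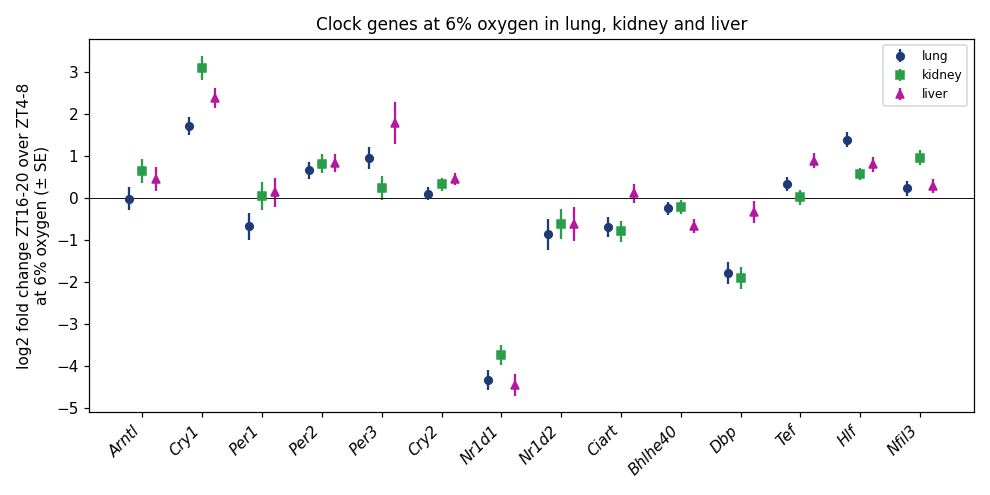
Log2 fold change of ZT16-20 over ZT4-8 at 6% oxygen with its SE for clock genes in lung (circles), kidney (squares) and liver (triangles), from 1 edgeR fit of 48 libraries without a mouse term. Nr1d1 lies between -3.75 and -4.46 in all 3 tissues, Cry1 is above 0 in each, and Dbp is below 0 in lung and kidney and near 0 in liver.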

How the data were processed

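Per the series design text, 4 mice per group gave 3 tissues each, and replicates are separate mice. Per the labels' protocols, total RNA was converted to indexed cDNA, pooled and amplified by in vitro transcription. The authors deposited raw counts per gene symbol, in 1 table per tissue. The submitters' processing notes name HTSeq, STAR, bcl2fastq, cutadapt and the build mm10. The sources used here do not give the annotation or strand, so overlapping and antisense genes cannot be told apart. Every listed lung gene reached at least 6 counts in some library, so very low genes are not in the table. The liver tables of mice in constant darkness were not used here, and 0 sample columns of the tables used were left out.

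From the counts, edgeR 4.0.16 (R 4.3.3, limma 3.58.1) was run on 16 lung libraries, with TMM scaling, filterByExpr (minimum count 10, minimum total 15) and a robust quasi-likelihood fit with 1 coefficient per group. Its 3 contrasts were time of day at 6% oxygen, time of day in air and their difference. P-values were adjusted by Benjamini-Hochberg over all genes, two-sided, and called under 0.05. SE is the log2 fold change divided by the root of F. Differences between tissues were tested in 1 fit of 48 libraries with the mouse as a block. The time of day within each tissue came from a separate fit of these 48 libraries without a mouse term. Which libraries share a mouse was taken from group and replicate letter, since the design text gives 3 tissues per mouse without saying which. Correlations of same-letter deviations ran from -0.073 to 0.217 with kidney and -0.0379 to 0.019 with liver. Those of different letters ran from -0.183 to 0.157 with kidney and -0.045 to 0.0534 with liver. The correlations therefore do not show that libraries of the same letter share a mouse. Counts give only counting precision, and 4 libraries per group limit each value.

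Named genes were the clock lists, up to 12 called genes per direction by fold change with a mean of at least 10 CPM and no overlap, up to 8 per class, 4 per list and 6 per tissue comparison. Values of 1 gene are not reported here. Members and lists were chosen with earlier results of these data known. Promoters came from a RefSeq table, positions from GENCODE vM21. The fits were tested on simulated counts. The chi-square of 24 replicate pairs, over its degrees of freedom, was 5 to 16.2, so no library was a copy. Alternatives were RLE scaling, no filter, DESeq2 1.42.0, a replicate block (or none), only the 8 libraries compared, and leaving out each library or mouse. The fit without 3 air libraries that held muscle markers was added after seeing the data.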

Additional observations from a re-analysis of the deposited data

Results flagged for a closer look

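In 11 of 196 groups of 4 libraries at 6% oxygen, 1 library stood apart from the other 3, by the size of its gap to the nearest of them. Chance alone gives about 1 in 20. At ZT16-20 these were Tef (175 CPM), Leo1 (17.6 CPM) and Tspan4 (151 CPM) in replicate D, and Acot1 (72.5 CPM), Hsph1 (113 CPM) and Wdr45 (86.4 CPM) in replicate A. At ZT4-8 they were Sec14l2 (33.6 CPM) and Adh1 (188 CPM) in replicate A, and Abhd8 (45.1 CPM), Litaf (337 CPM) and Mcf2l (44.9 CPM) in replicate B.

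The fold change of ZT16-20 over ZT4-8 differed between 6% oxygen and air, by the test of the difference, in 31 genes. The log2 difference, 6% oxygen minus air, was positive for 17: Scarletltr 3.47, Dbp 2.68, Hlf 1.99, Per3 1.82, Tspan4 1.70, Cys1 1.47, Tef 1.43, Fdps 1.29, Nr1d1 1.26, F13a1 1.21, Sec14l2 1.10, Lilr4b 0.96, Gpr155 0.95, Alas1 0.75, Angptl2 0.71, Avpi1 0.71 and Cbr2 0.68. It was negative for 14: Npas2 -3.80, Spon2 -3.18, Arntl -3.09, Cebpd -1.95, Nxph3 -1.84, Nfil3 -1.81, Rasl11a -1.64, Leo1 -1.35, Gem -1.32, Acoxl -1.21, Acot1 -1.09, Eln -1.06, Cxcl15 -1.03 and Fbn1 -0.86. Of the 31, 15 were called in all alternatives, among them Dbp, Hlf, Cys1, Spon2, Arntl and Npas2.

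Between tissues at 6% oxygen, the tested log2 difference of lung minus kidney was -1.69 for Cpm, 1.54 for Cys1 and 2.00 for Ppargc1b. That of lung minus liver was -1.48 for Dbp, -1.23 for Eif4ebp3, 1.41 for Fbxo21, 1.25 for Hsd3b7, -1.71 for Inmt and -1.46 for Por.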

How the results depend on the processing

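The genes called for time of day at 6% oxygen numbered 76 with RLE scaling, 71 with no filter, 114 with DESeq2, 56 with the replicate block, 93 with only the 8 libraries compared, 90 without the 3 air libraries, and 35 to 87 without single libraries. In air they numbered 210 with DESeq2, 77 with only the 8 libraries compared, 29 without the 3 air libraries, and 75 to 167 without single libraries, with the lowest counts of 75 and 78 without replicates B and C of ZT4-8 in air. The difference called 66 genes with DESeq2, 25 with the replicate block, 19 without the 3 air libraries and 19 to 38 without single libraries, with 19 without replicate D of ZT4-8 in 6% oxygen. Persisting genes numbered 5 without the 3 air libraries and 7 to 15 without single libraries. Genes called in air and smaller or not called at 6% oxygen, with a called difference, numbered 31 with DESeq2, 7 without the 3 air libraries and 12 to 24 without single libraries. Reversed genes numbered 2 with RLE scaling, 3 with DESeq2 and 0 to 3 without single libraries. Genes that appeared numbered 18 with DESeq2, 7 without the 3 air libraries and 5 to 13 without single libraries. Lung minus kidney called 1 to 3 genes and lung minus liver 25 to 52 without single mice, and 3 and 53 with no replicate block. Fits with fewer libraries have fewer degrees of freedom by construction; the cause of the other shifts was not tested. No named gene reversed its sign while called. The replicate letters did not pair the lung libraries: same-letter deviations between ZT16-20 and ZT4-8 correlated at -0.0919 to 0.0298 in 6% oxygen and -0.265 to 0.116 in air, and the block moved none of these counts by over 1.5 times. At 1.65 to 4.35 M counts per library, genes of a few CPM rest on few counts.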
